A study of Mus musculus with 6 samples.

Results

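The Wnt pathway and its intestinal stem cell genes were followed in 6 RNA sequencing libraries of HCT116, a long-established human cell line from a colorectal carcinoma. Parental cells gave 3 libraries, and cells resistant to oxaliplatin gave the other 3. The members were the rows of the count table whose symbol was on a list of 45 Wnt pathway and stem cell genes. Of these symbols 42 had a row among the 31456 rows of the table, and 37 had enough counts to be tested. FZD10, SMOC2 and OLFM4 were not analysed here. Oxaliplatin is a platinum compound that damages DNA and is given in colorectal cancer. The labels did not state how the resistant cells were derived, whether they are 1 clone, or whether the drug was present at harvest. Nor did they name the cultures behind the libraries of a group, so p-values here measure only the spread between libraries, which may be technical. Both cell forms come from the same line, which carries mutant beta-catenin, and the counts did not separate the mutant from the normal allele.

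In canonical Wnt signalling, secreted WNT proteins bind Frizzled receptors and the co-receptors LRP5 and LRP6. Dishevelled proteins then block a destruction complex of APC, AXIN and GSK3B that otherwise marks beta-catenin for degradation. Stabilised beta-catenin enters the nucleus, binds TCF/LEF factors and switches on target genes, several of which feed back to damp the pathway. At the base of the intestinal crypt this pathway maintains stem cells, and most colorectal cancers carry a mutation that activates it. The mutation of HCT116 lies in beta-catenin itself, where it removes a serine that the destruction complex would phosphorylate.

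Library totals ranged from 20246878 to 32138423 counts. A floor of detection was set at 3 counts per library, which equals 0.0975 to 0.153 CPM (the usual unit of counts scaled to library size, here with TMM factors). Floors and intervals cover counting error only. Of the 9 fixed markers of colorectal epithelium besides CDX1 and CDX2, 6 were above 1 CPM, among them EPCAM, CDH1 and KRT8. CDH17, GPA33 and LGALS4 had 0 to 11 counts per library. The summed marker level was 2776 to 3170 CPM in the parental and 2587 to 2733 CPM in the resistant libraries. Of the fibroblast markers COL1A1 rose 1.71-fold, whereas COL1A2, DCN, LUM and PDGFRA had at most 2 counts in any library and COL3A1 had 0 or 1 parental and 5 to 11 resistant counts per library. The immune cell marker CD68 had 12.1 to 13.0 CPM in the parental and 15.5 to 18.0 CPM in the resistant libraries, a 1.30-fold rise (edgeR adjusted p = 0.0013), and PTPRC, CD3E and CD14 had at most 4 counts in any library. The endothelial marker VWF had 0.683 to 1.16 CPM over all libraries and did not pass the threshold (edgeR adjusted p = 0.46), while KDR had 3 to 9 counts and CDH5 at most 1 count per library. The part of other cell types in the results was not tested. Mitochondrially encoded mRNAs took 4.79% to 5.07% of the parental and 6.33% to 6.95% of the resistant counts, and the part of this difference in the results was not tested.

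Across the 37 tested members, 16 rose and 12 fell in resistant against parental cells by edgeR's quasi-likelihood test with a threshold of 0.05 on the adjusted p. This made 75.7% of the tested members, against 53.8% of the 16605 genes tested. In single directions the shares were 43.2% higher, against 27.3% of all genes, and 32.4% lower, against 26.5%. A change of at least 1.5-fold was called for 10 members (27.0%), against 18.5% of all genes. The 6 that rose this much (16.2%, against 11.7% of all genes) were FZD1, FZD7, FZD9, AXIN2, SP5 and DKK4. Of these, FZD9 and DKK4 had enough counts to be tested only through the resistant libraries, where they were high. The 4 that fell this much (10.8%, against 6.74%) were TCF7L2, NOTUM, CD44 and PROM1. The groups did not overlap for 29 tested members (78.4%), against 61.2% of all genes. The tested members had a median level of 27.2 CPM, against 21.1 CPM for all genes tested. The part of this difference in level in the shares called was not tested. The median log2 fold change of the tested members was 0.03, beside 0.02 for all genes, so the members moved in both directions with little net shift. Counts per gene in bulk RNA cannot tell fewer cells that express a gene from less of its RNA per cell.

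**Figure D1:**
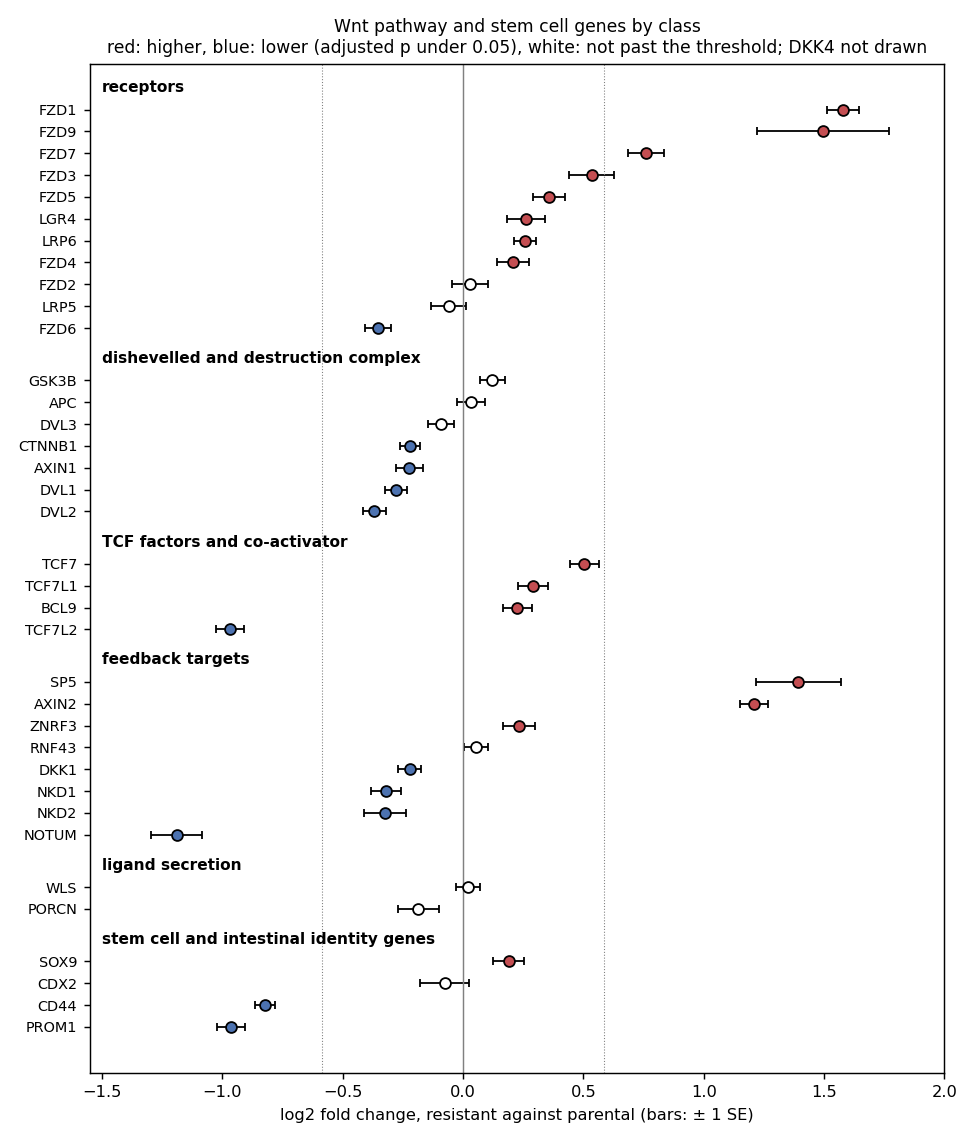
The log2 fold change of each tested member, resistant against parental (x axis, points with bars of 1 SE), is grouped by class, and DKK4 is left out because its parental level rested on 2 counts. Dotted lines mark a 1.5-fold change. Receptors lie mostly on the higher side, whereas TCF7L2 (-0.97), NOTUM (-1.19), CD44 (-0.82) and PROM1 (-0.96) lie farthest on the lower side.

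The genes of WNT secretion did not pass the threshold. WLS, the carrier that takes WNT proteins to the cell surface, had 57.3, 60.9 and 59.7 CPM in parental replicates 1 to 3 and 59.1, 62.6 and 58.8 CPM in resistant replicates 1 to 3. PORCN, the acyltransferase that attaches the lipid WNT proteins need for secretion, had 12.7, 14.2 and 12.0 CPM and then 11.1, 12.0 and 11.2 CPM. Both ranges overlapped between the groups. The log2 fold changes were 0.02 ± 0.05 for WLS and -0.19 ± 0.08 for PORCN (SE), with edgeR adjusted p-values of 0.74 and 0.081. PORCN passed the threshold with the replicate number as a block (0.043) and without parental replicate 3 (0.045), with adjusted p-values from 0.043 to 0.93 among the alternatives.

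Of 11 tested receptors 8 rose and 1 fell in the resistant cells, leaving 2 that missed the threshold. The 9 called are 81.8% of the tested receptors, against 53.8% of all genes (27.3% higher and 26.5% lower), with a median log2 fold change of 0.26 beside 0.02 for all genes. FZD1 (ENSG00000157240.3), a Frizzled receptor, had 10.9, 11.2 and 11.8 CPM in the parental and 33.7, 32.0 and 35.5 CPM in the resistant libraries. Every resistant library lay far above every parental one, and the rise was 2.99-fold (log2 fold change 1.58 ± 0.07 SE, edgeR adjusted p = 3e-09). FZD7 (ENSG00000155760.2), a Frizzled receptor known for its role in intestinal stem cells, had 17.5, 14.8 and 17.1 CPM in the parental libraries and 29.1, 26.1 and 28.4 CPM in the resistant ones. The FZD7 groups did not overlap, and the rise was 1.69-fold (log2 fold change 0.76 ± 0.08 SE, edgeR adjusted p = 5.9e-06). FZD9 was a low-level receptor, with 10, 11 and 7 counts in the parental and 25, 36 and 22 counts in the resistant libraries. These counts gave 0.356 to 0.376 CPM and 0.848 to 1.23 CPM, a 2.82-fold rise (log2 fold change 1.49 ± 0.27 SE, edgeR adjusted p = 6.9e-04). FZD9 had enough counts to be tested only through its resistant libraries, so its call depends on the group where it is high. FZD1, FZD2 and FZD7 are close paralogs, so the split of shared reads among them is uncertain.

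The remaining receptors changed less. FZD3, FZD5 and FZD4 rose 1.45-fold, 1.28-fold and 1.15-fold. The co-receptor gene LRP6 rose 1.20-fold, from 64.9 to 67.7 CPM in the parental to 77.7 to 81.8 CPM in the resistant libraries, whereas its partner LRP5 did not pass the threshold (88.6 to 101 CPM in the resistant and 91.5 to 110 CPM in the parental libraries). LGR4, a receptor for R-spondins, the secreted proteins that amplify WNT signals, rose 1.20-fold. FZD6 was the receptor that fell, from 80.8, 76.6 and 85.5 CPM to 61.7, 63.6 and 64.6 CPM (1.28-fold lower, edgeR adjusted p = 1.4e-04). FZD2 had 10.8 to 11.4 CPM in the parental and 10.7 to 11.7 CPM in the resistant libraries (edgeR adjusted p = 0.78). FZD8 had 0 to 8 counts per library, too few to test. The calls of FZD4, LGR4, FZD3 and LRP6 were lost under some alternatives, with adjusted p-values of 0.0021 to 0.12 for FZD4, 0.0016 to 0.067 for LGR4, 1.9e-13 to 0.78 for FZD3 and 5.1e-05 to 0.061 for LRP6. Among single libraries, leaving out parental replicate 1 or 3 or resistant replicate 1 or 2 gave FZD4 adjusted p-values of 0.12, 0.056, 0.073 and 0.063, and leaving out resistant replicate 1 or 3 gave LGR4 values of 0.067 and 0.050.

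On the deposited length-scaled values, taken as FPKM (a unit that corrects for gene length as well as library size), levels can be compared between genes. FZD6 was the most abundant Frizzled gene in every library. It held 55.6%, 56.4% and 49.0% of the summed Frizzled FPKM in the parental and 38.8%, 41.0% and 39.6% in the resistant libraries. The share of FZD1 was 3.36%, 3.48% and 3.09% in the parental and 9.42%, 8.79% and 10.3% in the resistant libraries. That of FZD7 was 8.47% to 10.1% and 13.4% to 15.4%. None of these 3 shares overlapped between the groups. The sum itself was 48.0, 46.9 and 55.8 FPKM in the parental and 53.8 to 56.4 FPKM in the resistant libraries. These ranges overlapped only through parental replicate 3, and the other parental libraries lay below every resistant one. Parental replicate 3 had 9.72 FPKM of FZD3, against 2.71 and 2.34 FPKM in parental replicates 1 and 2, although its counts gave 27.7 CPM against 25.0 and 21.4 CPM. With FZD3 left out, a choice made after seeing the data, FZD6 held 58.9% to 59.4% of the remaining sum in the parental and 42.7% to 45.7% in the resistant libraries.

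**Figure D2:**
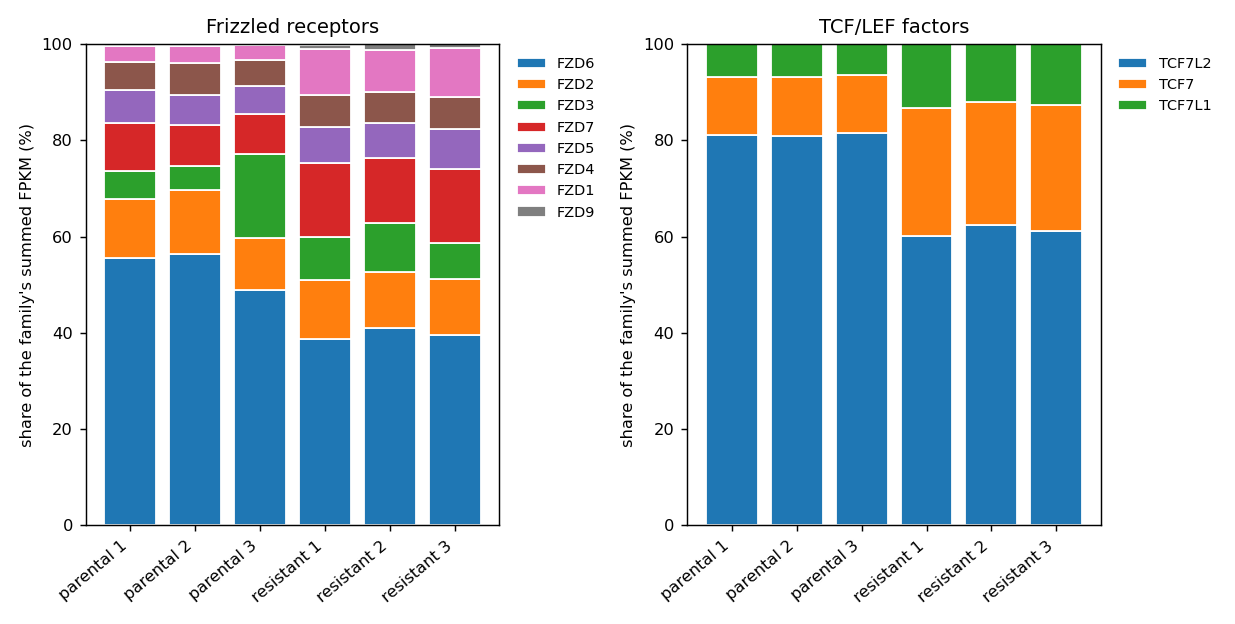
Stacked bars give the share of each gene in its family's summed FPKM (y axis, %) in each of the 6 libraries, for the Frizzled receptors (left) and the TCF/LEF factors (right), without FZD8 and LEF1, which were near 0. FZD6 and TCF7L2 take a smaller share in the 3 resistant libraries, and FZD1, FZD7, TCF7 and TCF7L1 a larger one.

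The genes of Dishevelled and the destruction complex moved little and, where they passed the threshold, downward. Of 7 members 4 fell and 3 missed the threshold, none rose, and no change reached 1.5-fold. The share called in either direction, 57.1%, was near the 53.8% of all genes (27.3% higher and 26.5% lower). In this class every call was a fall, so the 57.1% stands beside 26.5% for that direction. CTNNB1 (ENSG00000168036.18), the beta-catenin gene, had 380, 393 and 374 CPM in the parental and 330, 335 and 319 CPM in the resistant libraries. The groups did not overlap, and the fall was 1.17-fold (log2 fold change -0.22 ± 0.04 SE, edgeR adjusted p = 9.4e-04). AXIN1, a scaffold of the destruction complex, had 27.6, 27.3 and 28.0 CPM and then 23.8, 24.4 and 22.7 CPM, also 1.17-fold lower (edgeR adjusted p = 0.0054). APC, the scaffold mutated in most colorectal cancers, had 65.5, 61.6 and 68.8 CPM in the parental and 63.8, 71.2 and 64.9 CPM in the resistant libraries, with overlapping groups (edgeR adjusted p = 0.67). GSK3B, the kinase of the complex, had 95.8, 87.9 and 97.5 CPM and then 103, 98.4 and 104 CPM. Its groups did not overlap, yet the log2 fold change of 0.12 ± 0.05 (SE) missed the threshold (edgeR adjusted p = 0.067). GSK3B passed it with library sizes alone, with upper-quartile factors, with at least 1 CPM in 3 samples and with the replicate block, over an adjusted p range of 0.0062 to 0.47.

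Among the Dishevelled genes, which carry the receptor signal to the destruction complex, DVL2 had 75.2, 76.7 and 71.0 CPM in the parental and 58.7, 56.7 and 57.5 CPM in the resistant libraries (1.29-fold lower, edgeR adjusted p = 6.2e-05). DVL1 fell 1.21-fold, from 149, 154 and 141 CPM to 125, 121 and 119 CPM (edgeR adjusted p = 3.7e-04). DVL3 had 82.7, 82.5 and 88.7 CPM and then 76.9, 84.1 and 76.8 CPM, with overlapping groups (edgeR adjusted p = 0.17). The summed FPKM of the 3 Dishevelled genes was 117 to 129 in the parental and 102 to 106 in the resistant libraries, with DVL1 at 47.6% to 49.5% of the sum in every library. The CTNNB1 call was lost on the FPKM values and the AXIN1 call with library sizes alone and on unfiltered FPKM, over adjusted p ranges of 6.2e-07 to 0.14 and 0.0019 to 0.081.

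The TCF/LEF factors, through which beta-catenin reaches DNA, changed in composition. TCF7L2 (ENSG00000148737.17), the main TCF factor of the intestinal epithelium, had 193, 172 and 195 CPM in the parental and 94.9, 92.3 and 99.0 CPM in the resistant libraries. The groups were far apart, and the fall was 1.96-fold (log2 fold change -0.97 ± 0.06 SE, edgeR adjusted p = 6e-08). TCF7 (ENSG00000081059.20), the factor also known from T cells, rose 1.42-fold, from 26.9, 30.4 and 29.6 CPM to 40.9, 42.5 and 39.8 CPM (log2 fold change 0.50 ± 0.06 SE, edgeR adjusted p = 3e-05). TCF7L1, which mostly acts as a repressor, rose 1.22-fold, from 14.7, 15.6 and 14.5 CPM to 18.4, 18.6 and 17.9 CPM (edgeR adjusted p = 0.0020). Neither rise overlapped the parental range. LEF1 had 0 or 1 count in every library and was not detectable at this depth.

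On FPKM values TCF7L2 held 81.1%, 80.9% and 81.5% of the summed TCF/LEF level in the parental and 60.2%, 62.4% and 61.2% in the resistant libraries. TCF7 held 12.1% to 12.3% and then 25.5% to 26.5%. The sum was 84.1, 89.0 and 85.6 FPKM in the parental and 58.4, 61.6 and 56.8 FPKM in the resistant libraries, with TCF7L2 the leading factor in every library. BCL9, a co-activator that binds beta-catenin, rose 1.17-fold, from 49.3, 47.2 and 42.2 CPM to 55.2, 53.9 and 53.5 CPM (edgeR adjusted p = 0.0080). Its call was lost on unfiltered FPKM, over a range of 6.1e-04 to 0.077. The counts are per gene, so the splice forms of TCF7 and TCF7L2, which differ in whether they bind beta-catenin, were not told apart.

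**Figure D3:**
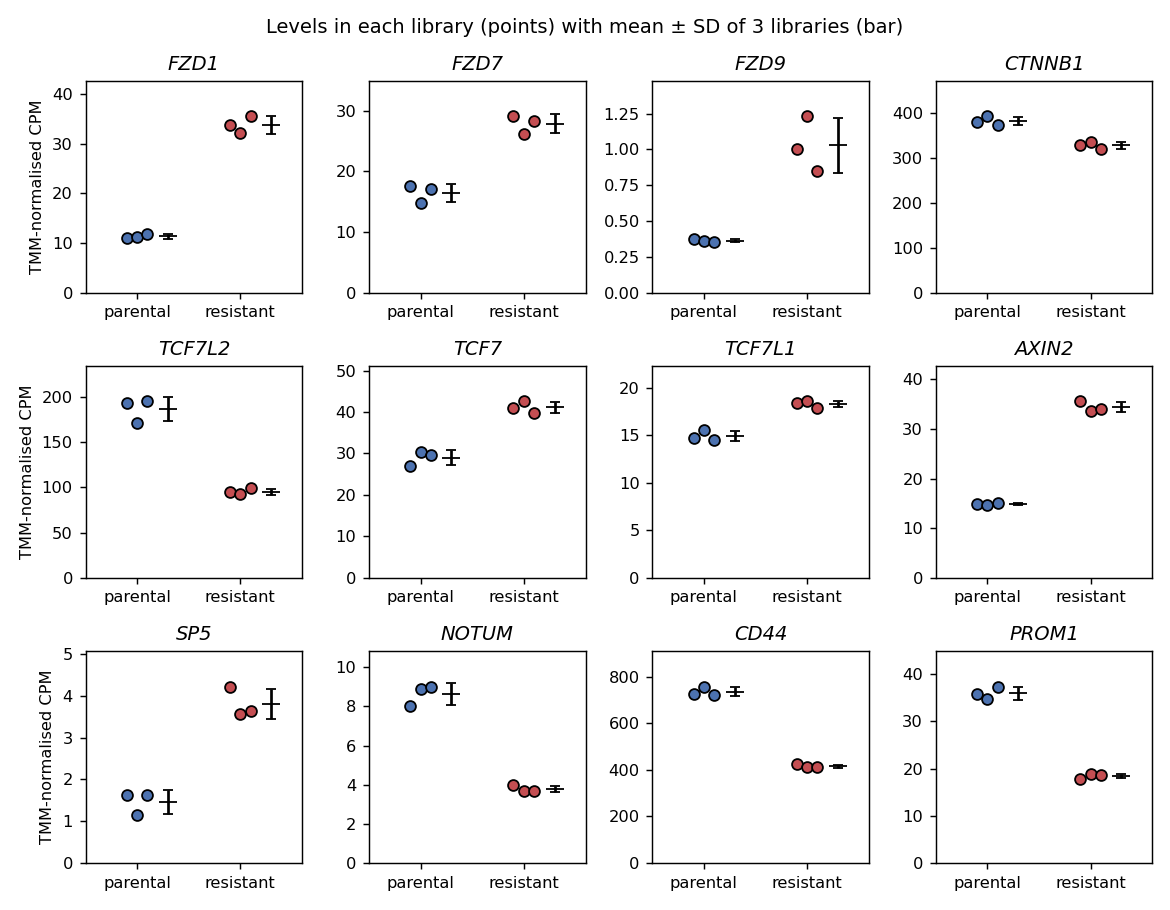
TMM-normalised CPM (y axis, from 0) of 12 members in each parental and resistant library (points), with the mean and SD of 3 libraries (bars). In each panel the groups do not overlap, with FZD1, AXIN2 and SP5 higher and TCF7L2, NOTUM, CD44 and PROM1 lower in the resistant cells.

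The feedback targets split in both directions. Of 9 tested members 4 rose and 4 fell (88.9% called, against 53.8% of all genes) and RNF43 missed the threshold, with a median log2 fold change of 0.05. AXIN2 (ENSG00000168646.13), the scaffold gene widely used as a readout of beta-catenin activity, had 14.9, 14.7 and 15.2 CPM in the parental and 35.6, 33.7 and 34.0 CPM in the resistant libraries. The replicates of each group lay close together, and the rise was 2.31-fold (log2 fold change 1.21 ± 0.06 SE, edgeR adjusted p = 9.7e-09). SP5, a transcription factor induced by beta-catenin, had 1.62, 1.14 and 1.63 CPM and then 4.22, 3.56 and 3.62 CPM. It rose 2.62-fold without overlap (log2 fold change 1.39 ± 0.18 SE, edgeR adjusted p = 4.2e-05). DKK4, a secreted inhibitor of LRP co-receptors, had 2, 0 and 0 counts in the parental and 15, 17 and 17 counts in the resistant libraries. The parental counts lay below the floor of 3 in each library. The ratio of summed counts was 23.6 with a 95% exact conditional counting interval of 6.18 to 200, and DKK4 passed the threshold (edgeR adjusted p = 1.3e-04). DKK4 had enough counts to be tested only through its resistant libraries, so this call depends on the group where it is high. Without parental replicate 1, the only parental library with counts, a floor of 3 counts over the group gave a bound of 10.3-fold. That bound leaves out the counts that lower it, so the lower limit from all libraries remains 6.18.

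NOTUM (ENSG00000185269.12), a secreted enzyme that removes the lipid from WNT proteins, moved the opposite way. It had 8.0, 8.88 and 9.01 CPM in the parental and 3.98, 3.66 and 3.70 CPM in the resistant libraries. The fall was 2.28-fold without overlap (log2 fold change -1.19 ± 0.11 SE, edgeR adjusted p = 2.2e-06). DKK1, a secreted LRP inhibitor and with CD44 one of the most abundant members on the FPKM scale in the parental cells (means of 373 and 374 FPKM), had 466, 455 and 460 CPM in the parental and 404, 369 and 411 CPM in the resistant libraries. DKK1 was thus 1.17-fold lower, with no overlap (edgeR adjusted p = 0.0022). NKD1 and NKD2, which bind Dishevelled, each fell 1.25-fold. NKD1 had 27.8, 28.8 and 27.6 CPM and then 21.7, 24.3 and 21.5 CPM, and NKD2 had 13.4, 12.2 and 11.2 CPM and then 9.32, 9.95 and 10.2 CPM, with edgeR adjusted p-values of 0.0012 and 0.0080.

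The E3 ligase genes RNF43 and ZNRF3 encode proteins that remove Frizzled receptors from the cell surface. RNF43 had 48.7, 51.5 and 48.1 CPM in the parental and 51.2, 51.1 and 51.8 CPM in the resistant libraries, with overlapping groups (edgeR adjusted p = 0.40). ZNRF3 had 21.8, 19.1 and 21.0 CPM and then 24.5, 24.9 and 23.1 CPM, a 1.17-fold rise (edgeR adjusted p = 0.011). On the FPKM values the DKK1, NKD2 and ZNRF3 calls were lost, ZNRF3 also in DESeq2, over adjusted p ranges of 1.7e-05 to 0.095, 0.0014 to 0.20 and 0.0020 to 0.35. NKD1 turned to higher there (log2 difference 0.39 with a pseudocount of 1, limma adjusted p = 0.35, within 5.4e-06 to 0.50), where resistant replicate 2 had 4.70 FPKM, against 1.34 to 2.31 FPKM in the other libraries. RNF43 passed the threshold with library sizes alone, over a range of 0.024 to 0.76.

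Among the stem cell and intestinal identity genes, the surface markers fell and the crypt stem cell markers were near the limit of detection. CD44 (ENSG00000026508.18), a hyaluronan receptor and beta-catenin target, had 727, 758 and 722 CPM in the parental and 424, 412 and 411 CPM in the resistant libraries. The fall was 1.77-fold with widely separated groups (log2 fold change -0.82 ± 0.04 SE, edgeR adjusted p = 1.7e-08). CD44 splice forms were not told apart in these counts. PROM1 (ENSG00000007062.11), which encodes the surface marker CD133, had 35.9, 34.7 and 37.4 CPM and then 17.9, 18.8 and 18.5 CPM. The PROM1 fall was 1.95-fold without overlap (log2 fold change -0.96 ± 0.06 SE, edgeR adjusted p = 7.5e-08).

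SOX9, a transcription factor of crypt progenitors, had 124, 108 and 124 CPM in the parental and 136, 126 and 143 CPM in the resistant libraries. This was a 1.14-fold rise (edgeR adjusted p = 0.026), which was lost without resistant replicate 1 (0.080), without resistant replicate 3 (0.12) and on unfiltered FPKM, over a range of 3.4e-04 to 0.12. CDX2, the transcription factor of intestinal identity, had 11.3, 9.62 and 11.9 CPM and then 9.84, 9.85 and 11.3 CPM, with overlapping groups (edgeR adjusted p = 0.54). LGR5, the defining marker of crypt base stem cells, had 1, 3 and 2 counts in the parental and 3, 4 and 8 counts in the resistant libraries. Its ratio of summed counts was 2.40 with a 95% counting interval of 0.882 to 7.56, which includes no change. ASCL2, a stem cell transcription factor, and CDX1, a relative of CDX2, had 0 or 1 count per library and were not detectable at this depth.

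Genes of the pathway outside the member list were counted in 8 further lists, of which those below are described by the tested genes with the smallest adjusted p. Of all genes tested 53.8% were called in either direction (27.3% higher and 26.5% lower), and the share of each list is given against this. Of 14 tested WNT ligands 3 rose and 5 fell, and 6 missed the threshold, so that the share called (57.1%) was near that of all genes. WNT16, the ligand with the most counts, fell 2.23-fold, from 123 to 132 CPM in the parental to 52.9 to 59.9 CPM in the resistant libraries (edgeR adjusted p = 1.3e-08). WNT7B rose 2.82-fold, from 8.65 to 9.27 CPM to 23.7 to 26.6 CPM, and WNT9A rose 2.42-fold. WNT10B fell 1.83-fold. Of 12 secreted modulators with a row, RSPO4 alone was tested, so the share called (100%) rests on 1 gene. It rose from 0.225 to 0.611 CPM in the parental to 0.771 to 0.958 CPM in the resistant libraries (edgeR adjusted p = 0.027). RSPO4 had 6, 16 and 12 parental counts, too few for the filter without its resistant libraries, so its call depends on the group where it is high. The call was lost by DESeq2 (0.15), on unfiltered FPKM (0.41) and when parental replicate 1 (0.11), resistant replicate 1 (0.070) or resistant replicate 2 (0.090) was left out. Among the untested genes RSPO1, an R-spondin, had 9, 9 and 8 counts in the parental and 0 in all resistant libraries, at least 9.01-fold lower against a floor of 3 counts over the group. WNT5A, a ligand of non-canonical signalling, had 0 parental counts and 5, 7 and 5 resistant counts, at least 5.45-fold higher. RSPO1 and WNT5A were singled out after their values were seen.

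**Figure D4:**
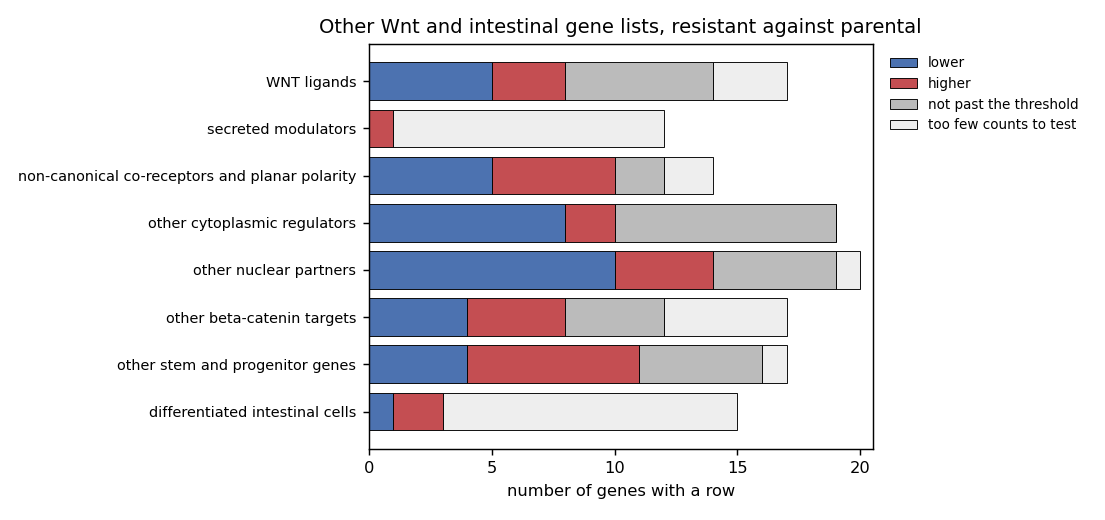
Bars give the number of genes with a row (x axis) in each of 8 further lists, divided into lower, higher, not past the threshold and too few counts to test. Nuclear partners (10 lower, 4 higher) and cytoplasmic regulators (8 lower, 2 higher) hold more lower than higher genes, whereas stem and progenitor genes hold 7 higher and 4 lower.

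Of 12 tested genes of non-canonical co-receptors and planar polarity 5 rose and 5 fell (83.3% called), and 2 missed the threshold. PRICKLE1, a planar polarity gene, rose 3.37-fold, from 4.73 to 5.34 CPM to 16.2 to 18.0 CPM (edgeR adjusted p = 1.3e-08). ROR1, a receptor for WNT5A, rose 1.68-fold, and DAAM1, a formin that acts below Dishevelled, 1.42-fold (its call was lost on unfiltered FPKM, with an adjusted p of 0.061). SCRIB, a polarity scaffold gene, fell 1.65-fold. Of 19 tested cytoplasmic regulators outside the member list 2 rose and 8 fell, and 9 missed the threshold, a share called (52.6%) near the 53.8% of all genes. DACT1, a Dishevelled-binding antagonist, fell 2.76-fold, and CUL1, a subunit of the ubiquitin ligase that marks beta-catenin, fell 1.51-fold. GSK3A, the paralog of GSK3B, fell 1.39-fold and the phosphatase scaffold gene PPP2R1A 1.42-fold. The median log2 fold change of these regulators was -0.08, beside 0.02 for all genes.

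Of 19 tested nuclear partners of beta-catenin and TCF outside the member list 10 fell and 4 rose (73.7% called), and 5 missed the threshold, with a median log2 fold change of -0.16. TLE3, a co-repressor that binds TCF factors, had 52.9, 47.8 and 49.8 CPM in the parental and 21.6, 21.8 and 21.6 CPM in the resistant libraries, a 2.32-fold fall (edgeR adjusted p = 1e-08). Its relative TLE1 rose 1.32-fold, from 49.2 to 50.8 CPM to 62.2 to 71.0 CPM. AES (also named TLE5) and TBL1XR1, a co-regulator of beta-catenin transcription, each fell 1.28-fold.

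Other beta-catenin targets went both ways, as the feedback targets did. Of 12 tested 4 rose and 4 fell (66.7% called), and the 4 not past the threshold included CCND1 and EPHB2. TNFRSF19, a receptor gene also named TROY, rose 10.5-fold, from 0.714, 0.748 and 0.815 CPM to 8.04, 7.63 and 8.25 CPM (edgeR adjusted p = 3.3e-09). ETS2, an ETS transcription factor gene, and L1CAM, a cell adhesion gene, fell 2.13-fold and 2.25-fold. MYC was also among the 4 that fell, from 316 to 322 CPM in the parental to 169 to 173 CPM in the resistant libraries. This was a 1.86-fold fall (edgeR adjusted p = 6.2e-09).

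Of 16 further stem and progenitor genes tested 7 rose and 4 fell (68.8% called), and 5 missed the threshold, with a median log2 fold change of 0.14. DCLK1, a kinase gene known as a tuft cell marker, had 6.88, 6.08 and 4.79 CPM in the parental and 57.0, 59.1 and 57.2 CPM in the resistant libraries, a 9.63-fold rise (edgeR adjusted p = 9.9e-11). CLU, a marker of regenerating intestinal epithelium, rose 1.89-fold and RGMB 1.88-fold. TERT, the telomerase reverse transcriptase gene, fell 2.27-fold. Of 15 genes of differentiated intestinal cells with a row 3 were tested, of which 2 rose and 1 fell (100% called). HNF4A, a transcription factor of enterocytes, fell 9.0-fold, from 4.89, 5.62 and 5.09 CPM to 0.643, 0.616 and 0.463 CPM (edgeR adjusted p = 3.7e-08). CA2 rose 1.25-fold and KRT20, at 0.325 to 0.964 CPM over all libraries, also rose (edgeR adjusted p = 0.018), whereas its FPKM values were 0.23, 0.22 and 1.56 in the parental and 0.62, 0.32 and 0.70 in the resistant libraries. Parental replicate 3 was the highest of the 6 on FPKM, and both other parental libraries lay below every resistant one. KRT20, too, had enough counts to be tested only through its resistant libraries. The KRT20 call was lost by DESeq2 (adjusted p = 0.11), on all FPKM settings and when parental replicate 1 (0.050), resistant replicate 1 (0.065) or resistant replicate 3 (0.090) was left out. MUC2, VIL1 and CHGA had at most 4 counts in any library.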

How the data were processed

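The authors deposited a table of raw read counts, with one row per gene and one column per library, whose names match the sample descriptions. A second deposited table, whose header names no unit, was taken as FPKM computed by the authors. A TPM table with rows left out would look alike, and ratios between genes within a library do not depend on this. Which aligner, counter, annotation or strand setting was used was not given in the sources used here. As organism the labels name mouse, and the submitters' processing notes name GRCm38 and mm10, whereas 30616 rows carry human Ensembl identifiers, so no mouse reference, sequence or coordinate was used. The other 840 rows are gene models without such an identifier and took 0.857% to 0.955% of the counts.

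The test was edgeR 4.0.16 in R 4.3.3 (TMM, filterByExpr, robust quasi-likelihood, two-sided), with Benjamini-Hochberg adjustment over the 16605 genes tested and a threshold of 0.05. The SE is the log2 fold change divided by the square root of F. No exact test of single genes was made, since 3 against 3 libraries cannot give a p below 0.10. The 6 libraries were compared as 3 parental and 3 resistant. Replicates of a group differed by more than sampling noise in every pair, with a chi-square per gene of 1.99 to 11.3. Parental replicate 2 stood apart, with 11.3 and 10.8 in its pairs. The alternatives were other normalizations, filters, DESeq2 1.42.0, limma 3.58.1 on log2(FPKM + 1) and log2(FPKM + 0.1), the replicate block and leaving out each library.

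The members, classes and lists were chosen with earlier results of these data known, and no set test was made. Described with every sample's value are members past the threshold with at least 1.5-fold change, and tested members of the destruction complex, TCF and feedback classes. From each further list at most 4 tested genes with the smallest adjusted p are named. CCND1, EPHB2, KRT8, EPCAM, CDH1, KRT20, CA2, other marker genes and genes with too few counts are named beside these, as are other members for which a call changed.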

Additional observations from a re-analysis of the deposited data

How the results depend on the processing

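Of the 28 members called, 16 kept their call and direction in each of the 17 alternatives that tested them, and 12 lost the call or the direction in some. The 16 include the 10 with at least a 1.5-fold change, of which FZD9 was tested in only 14 alternatives and DKK4 in 16. With library sizes alone the median log2 fold change of all genes moved from 0.02 to 0.11, and 65.3% of calls were higher, against 50.8%. On log2(FPKM + 1), log2(FPKM + 0.1) and unfiltered log2(FPKM + 1), 2719, 2690 and 2157 genes were lower, against 4399, and 4 feedback targets were called in each, against 8. Unfiltered FPKM gave 5290 genes, 10 members higher, 7 members lower and 2 members of the Dishevelled and destruction complex class. With the replicate block 1 gene of ligand secretion was called, and leaving out each library in turn gave 0 to 1. The same leave-outs gave 7666 to 9209 genes, 13 to 16 members higher and 12 to 13 lower. The replicate block gave 9973 genes, 17 members higher and 13 lower. Deviations of same-numbered libraries correlated at 0.0883, 0.212 and 0.0493, and those of differently numbered ones at -0.157 to 0.103. Parental replicates 1 and 2 each correlated best with their own number, whereas parental replicate 3 correlated best with resistant replicate 1 (0.103). These values do not settle whether the numbers pair the libraries. The labels state no pairing, so the main fit had no block. Signs turned for members not past the threshold. LRP5 was at 0.035 with library sizes alone, 0.057, 0.059 and 0.057 on the FPKM settings, and -0.12 to 0.027 when leaving out each library, the positive value without parental replicate 2. DVL3 was at 0.0013 with library sizes alone. APC was at -0.076, -0.083 and -0.076 on the FPKM settings and -0.018 to 0.062 over the leave-outs, negative without parental replicate 2 (-0.0076) or resistant replicate 2. WLS was at -0.011 to 0.043 over the leave-outs, negative without parental replicate 1 or resistant replicate 2 (-0.0082). CDX2 was at 0.016 with library sizes alone and 0.033, 0.038 and 0.033 on the FPKM settings. NKD1, called lower on counts, was at 0.39, 0.51 and 0.39 on the FPKM settings. KRT20 was at -0.027, 0.15 and -0.027 on the FPKM settings. For the further pathway lists and the genes named from them, alternatives were added after seeing the data. On the 3 FPKM settings the non-canonical and polarity list had 6, 6 and 4 genes called, against 10, and the nuclear partners 9, 9 and 5, against 14. The secreted modulators, with 1 called, had 2 without a filter, 0 with at least 1 CPM in 3 samples, 0 on both filtered FPKM settings and 0 to 1 over the leave-outs. The cause was not tested. Depth limits FZD8, LEF1, LGR5, ASCL2 and CDX1, and the parental level of DKK4.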

Other observations

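The ratio of FPKM to CPM should be close to constant for a gene across libraries. It differed between the highest and the lowest library by 3.38 times for NKD1 and 3.24 times for FZD3, against 1.06 times for DVL1 and 1.10 times for AXIN2. Between these lay LGR5, with few counts (2.34 times), CDX2 (1.46), APC (1.34), and NOTUM and CD44 (1.32 each). Over the alternatives the log2 fold change was -1.25 to -0.72 for NOTUM and -1.09 to -0.73 for CD44. For FZD3 the library that stood apart was parental replicate 3, and for NKD1 it was resistant replicate 2. The levels of FZD3 and NKD1 in the FPKM table therefore differ from their counts, and the cause was not tested.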
